A study of Drosophila melanogaster with 2 samples.

Results

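The vacuolar proton pump (V-ATPase) genes were taken as every protein-coding gene of Ensembl release 115 on the dm6 assembly whose symbol starts with Vha, which gave 33 of the 13968 protein-coding genes on the main chromosome arms. Binding was measured by chromatin immunoprecipitation and sequencing (ChIP-seq) in whole embryos of Drosophila melanogaster, mixed in sex and aged 0 to 24 h, from a transgenic line that stably expresses CHES-1-like, a forkhead transcription factor, with GFP fused to its C-terminus, using an antibody against GFP. Both samples, biological replicates 2 and 3, belong to 1 group from the same line, so all values describe where the tagged protein was found and no second condition exists. Binding was found more often at the V-ATPase genes that most epithelia share than at their paralogues: a reproducible summit lay at the promoter of 9 of 13 such genes, against 3 of 18 paralogues and 25.9% of all protein-coding genes. The classes were chosen with earlier results of these data known, so this split is a description only.

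As background, the V-ATPase is a rotary pump that uses ATP to acidify lysosomes, endosomes and secretory vesicles, and in insects it also energizes ion transport across epithelia such as the Malpighian tubules. Its V1 sector, in the cytosol, hydrolyses ATP, and its V0 sector, in the membrane, carries the protons. In Drosophila several subunits are encoded by small gene families, in which 1 gene is used widely and the others are more often restricted to particular tissues. The class of widely used genes was written from that knowledge (Vha68-2, Vha55, Vha44, Vha36-1, Vha26, Vha14-1, Vha13, VhaSFD, Vha100-2, Vha16-1, VhaPPA1-1, VhaAC39-1 and VhaM9.7-b, 1 gene for each of 13 subunits). The other 18 subunit genes were classed as paralogues, and VhaAC45 and VhaAC45RP as accessory. Genes and classes were chosen when earlier results of these data were already known. No expression data were analysed here, so the classes are not measurements of these embryos, and whole embryos do not tell in which cells a site was occupied.

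The deposited lists hold 1 line per summit, the position of highest signal in a peak, with the authors' own signal value. The thresholded list held 4599 summits kept as reproducible, which are the 4599 strongest of 30000 entries in the pooled list of both replicates, with signal values of 84.2 and above. Each replicate list held 30000 entries, background included, and a deposited q-value under 0.05 was given to 9439 of them in replicate 2 and 7650 in replicate 3. Signal values are on the scale of their own list, so replicates are compared by rank, 1 being the strongest. Read depth is unknown from these files. Genes with a thresholded summit no more than 500 bp from an annotated transcription start site (TSS) are called bound here.

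The sequences under or beside some of these summits are shown, with capitals where a searched motif matched. The windows are selected examples and do not represent the classes. In the promoters of all members, the DRE stood in 2 of 13 widely used genes and 0 of 18 paralogues. The Motif 1 core stood in 3 of 13 and 1 of 18. Over all protein-coding genes these shares were 10.2% and 6.77%. A gene counted once over all its TSSs, and 5 of 13 widely used genes and 3 of 18 paralogues had 2 or more TSSs. All are from release 6 of the genome (dm6), 5′ to 3′ on the strand of the V-ATPase gene. The first is the whole interval between the TSSs of Vha55 and its divergent neighbour Snx3, chr3R:12627830-12628030, minus strand, with the summit at base 190 and with a DRE (TATCGATA) and a forkhead match (GTAAACA).
Vha55: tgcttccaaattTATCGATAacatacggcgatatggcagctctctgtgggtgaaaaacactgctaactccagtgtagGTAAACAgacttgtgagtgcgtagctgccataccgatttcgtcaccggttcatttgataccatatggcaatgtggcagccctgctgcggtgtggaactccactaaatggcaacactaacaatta
The next pair covers 50 bases on each side of the summits of both bound A-subunit genes, chr2L:12974102-12974202, plus strand, for the widely used Vha68-2, and chr2L:13004150-13004250, minus strand, for its paralogue Vha68-1. The Motif 1 core (GGTCACACT, here on the opposite strand) stood 6 bp from the summit of Vha68-2, and none of the searched motifs matched in the window of Vha68-1.
Vha68-2: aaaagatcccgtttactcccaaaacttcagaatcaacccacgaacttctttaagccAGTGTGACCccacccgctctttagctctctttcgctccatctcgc
Vha68-1: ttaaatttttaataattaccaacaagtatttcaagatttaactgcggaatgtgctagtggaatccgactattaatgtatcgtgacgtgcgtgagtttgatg
The last pair covers the 100 bases before the TSS of a bound paralogue, VhaM9.7-c (chr3L:4186866-4186965, minus strand, summit at base 100), and of a widely used gene without a thresholded summit, VhaSFD (chr2L:16727827-16727926, minus strand, pooled summit at base 58), which holds a DRE. At VhaM9.7-c a GACGC match started 2 bases after the TSS, 3 bp from the summit, outside the window shown.
VhaM9.7-c: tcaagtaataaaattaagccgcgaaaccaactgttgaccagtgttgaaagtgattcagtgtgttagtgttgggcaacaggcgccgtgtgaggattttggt
VhaSFD: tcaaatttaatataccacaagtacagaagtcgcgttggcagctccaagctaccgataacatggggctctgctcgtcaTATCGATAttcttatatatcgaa

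Over the whole family, 12 of 33 genes were bound (36.4%, exact 95% interval 20.4 to 54.9, counting error over genes only), beside 25.9% of all protein-coding genes. This interval contains the share of all genes but is wide, so it does not tell whether the family as a whole differed from the background. The classes differed more from each other than the family from other genes. Of the widely used genes 9 of 13 were bound (69.2%, 38.6 to 90.9), of the paralogues 3 of 18 (16.7%, 3.58 to 41.4) and of the accessory genes 0 of 2. The interval of the paralogues also contains the share of all genes. The pooled list gave the same order at looser limits. A pooled entry with a q-value under 0.05 stood at 12 of 13 widely used genes and 4 of 18 paralogues, against 38.6% of all genes, and any pooled entry at 13 of 13 and 8 of 18, against 56.6%. No test was made of the difference between the classes, since the genes were chosen as a list and are not replicates.

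**Figure D1:**
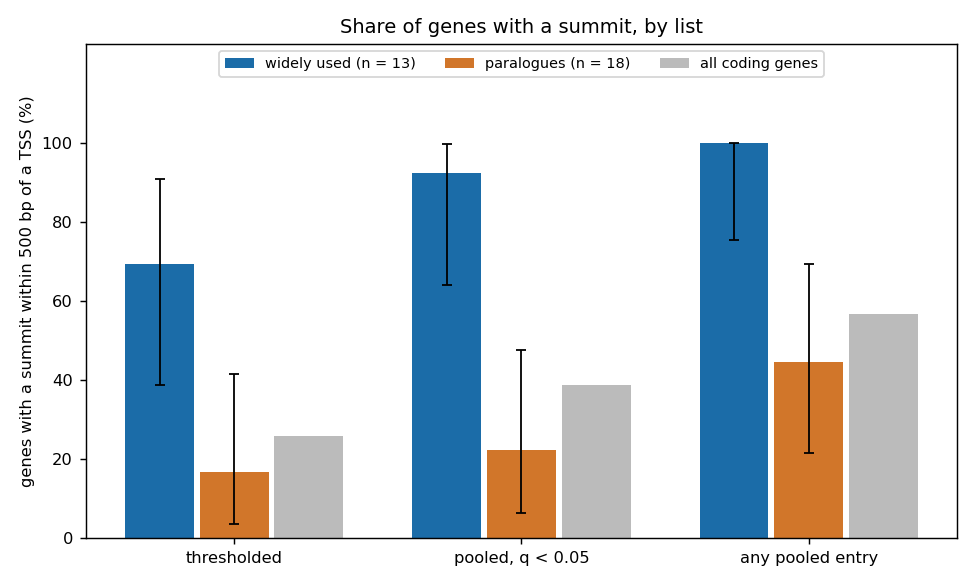
Share of genes (y axis, %) with a summit within 500 bp of a TSS, for widely used V-ATPase genes, their paralogues and all protein-coding genes, by the thresholded list, pooled entries with a q-value under 0.05 and all pooled entries. Bars start at 0 and black lines are exact 95% intervals for counting error over genes; the widely used genes stand at 69.2%, 92.3% and 100%, and the paralogues at 16.7%, 22.2% and 44.4%.

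Both replicates gave this split. Among as many best peaks as the thresholded list holds, replicate 2 had summits at 9 of 13 widely used genes and 3 of 18 paralogues (25.2% of all genes), and replicate 3 at 8 of 13 and 3 of 18 (26.2% of all genes). The gene lost in replicate 3 was Vha26, and Vha13 counted in replicate 2 through an entry 163 bp from its thresholded summit. The difference between the classes was smaller by stricter or more exclusive counting. In the stronger part of the thresholded list, cut at its median, 4 of 13 widely used genes and 3 of 18 paralogues were bound, beside 15% of all genes. With a summit credited to the closest TSS alone, 5 of 13 and 2 of 18 were bound, beside 19.3% of all genes.

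**Figure D2:**
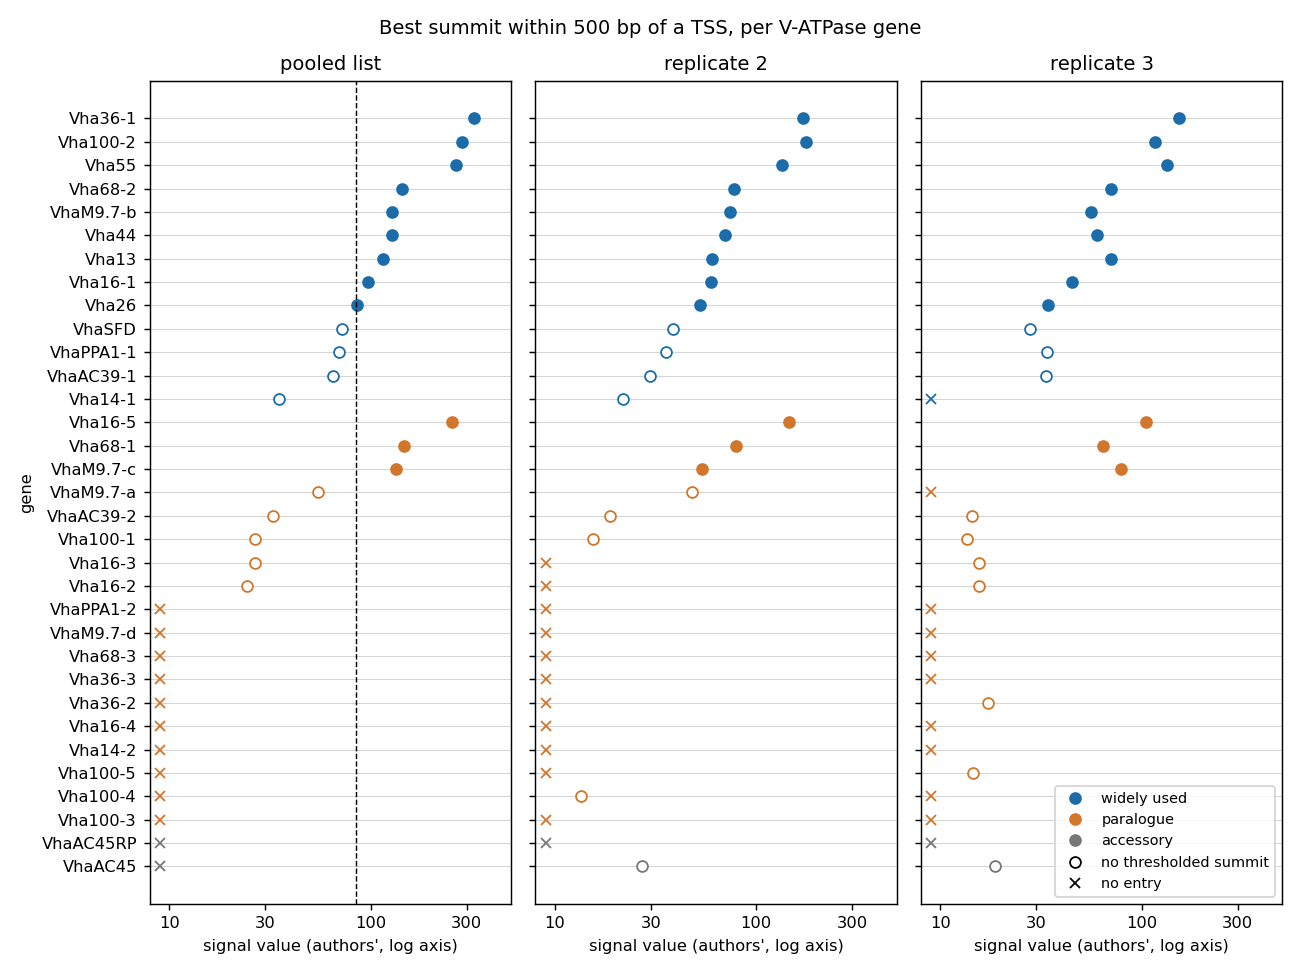
Signal value (authors' own, log axis, on the scale of each list) of the best entry within 500 bp of a TSS for each of the 33 genes, in the pooled list, replicate 2 and replicate 3. Filled points are genes with a thresholded summit, open points genes without one and crosses genes with no entry; the dashed line marks the lowest thresholded signal, 84.2. The 9 filled widely used genes run from 85.9 to 325 in the pooled list, where 10 of 18 paralogues are crosses.

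In the V1 sector, 6 of 8 widely used genes and 1 of 5 paralogues were bound, beside 25.9% of all protein-coding genes. Subunits A and B form the ring that binds and hydrolyses ATP, with A as the catalytic subunit. The only B-subunit gene, Vha55 (FBgn0005671; 3R, 12623762 to 12627829, minus strand), had a summit at 12627841, 12 bp upstream of its TSS, with signal 267 and rank 541. It ranked 697 in replicate 2 (signal 135) and 382 in replicate 3 (signal 134), high in both. A further pooled entry in its intron, 665 bp from a TSS, ranked 8938.

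The A subunit is encoded by 3 neighbouring genes on arm 2L, and both Vha68-2 and Vha68-1 were bound while Vha68-3 was not. Vha68-2 (FBgn0263598; 12974322 to 12978607, plus strand), the widely used gene, had its summit 170 bp upstream of its outermost TSS with signal 143, at rank 1892, and ranked 2119 and 1615 in replicates 2 and 3. Vha68-1 (FBgn0265262; 13000770 to 13004107, minus strand) had a summit of nearly the same strength, signal 147 at rank 1792, 93 bp upstream of its TSS, and ranked 2045 and 1925. The paralogue and the widely used gene thus stood close together in the pooled list, and their order differed between the replicates. Vha68-3 (FBgn0032464; 12978786 to 12981293, plus strand), which starts just beyond the end of Vha68-2, had no entry within 500 bp of its TSS in any of the 4 lists, and the nearest thresholded summit, 4634 bp away, was that of Vha68-2.

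The central rotor stalk of V1 is made of subunits D and F. Vha36-1 (FBgn0022097; 2R, 15541435 to 15542498, plus strand), the widely used D-subunit gene, had the strongest summit of the family, with signal 325 at rank 353, 57 bp upstream of its TSS. It ranked 436 in replicate 2 (signal 171) and 265 in replicate 3 (signal 153). Its paralogues Vha36-2 and Vha36-3 were not bound, and the former had 1 entry in replicate 3 alone, at rank 18461, in its coding sequence. Neither F-subunit gene was bound. Vha14-1, the widely used one, had a pooled entry of rank 16334 with a deposited −log10 q of 0.44, an entry of rank 15136 in replicate 2 and none in replicate 3, and a thresholded summit of rank 407 lay 827 bp from its TSS. Vha14-2 had no entry in any list.

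The peripheral stalks and the regulatory subunits of V1 each have 1 gene. Subunit C, whose release accompanies reversible disassembly of the pump in yeast and insects, is encoded by Vha44 (FBgn0287825; 2R, 16324813 to 16336637, minus strand). Its summit lay 56 bp upstream of the outer TSS, in the 5' UTR of the opposite-strand neighbour Hmgs. It had signal 127, at rank 2382, and ranked 2528 and 2144 in replicates 2 and 3. Vha13 (FBgn0283536; 3R, 19643018 to 19644386, minus strand), for stalk subunit G, had a summit 68 bp upstream of its TSS with signal 115 at rank 2790. Its replicates were less alike: the best entry at its TSS ranked 3316 in replicate 2, where it lay 95 bp from the TSS in the 5' UTR, and 1617 in replicate 3, where it lay 28 bp away. That entry of replicate 2 lay 163 bp from the thresholded summit, and the one within 100 bp of the summit ranked 7790 with signal 33.9, a ratio of 4.82 to replicate 3.

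Vha26 (FBgn0283535; 3R, 5591763 to 5595356, plus strand), for stalk subunit E, was the weakest bound gene. Its summit, 228 bp upstream of the TSS, had signal 85.9 at rank 4463, with a −log10 q of 3.25, close to the limit of the list. It ranked 4085 in replicate 2 and 5613 in replicate 3, outside the 4599 best of the latter. VhaSFD (FBgn0027779; 2L, 16722883 to 16727826, minus strand), for regulatory subunit H, was not bound. Its pooled summit lay 43 bp upstream of its TSS, with signal 72.5, rank 5711 and −log10 q of 3.02. The gene ranked 6442 in replicate 2 and 7869 in replicate 3, where its −log10 q of 1.25 missed a q-value under 0.05.

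In the V0 sector, 3 of 5 widely used genes and 2 of 13 paralogues were bound, beside 25.9% of all protein-coding genes. Subunit a, the stator that shapes the proton path and directs the pump to particular membranes, has 5 genes, of which only Vha100-2 was bound. Vha100-2 (FBgn0028670; 3R, 18390323 to 18399169, minus strand) had a summit at 18397253 with signal 284 and rank 479, 325 bp upstream of an inner TSS. It ranked 410 in replicate 2 (signal 177) and 541 in replicate 3 (signal 116). Of its paralogues, Vha100-1, known for its role in neurons, had entries in both replicates but among the weakest of each list, at ranks 24966 and 27560, Vha100-4 had an entry in replicate 2 alone at rank 29742, Vha100-5 in replicate 3 alone at rank 24765, and Vha100-3 none.

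The c ring, which turns in the membrane as protons pass, is built from subunit c and its relative c''. Vha16-1 (FBgn0262736; 2R, 6625242 to 6633090, minus strand), the widely used c-subunit gene, had a summit 116 bp upstream of its outer TSS with signal 97.0 at rank 3673, and ranked 3386 and 3593 in replicates 2 and 3. It was the only gene of the family with a thresholded summit elsewhere in its body, in an intron 3878 bp from a TSS, with signal 101 at rank 3480. Another 3 entries with a q-value under 0.05, ranked 4755 to 6541, lay in its introns.

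Among the other c-subunit genes, the paralogue Vha16-5 (FBgn0032294; 2L, 10736319 to 10737043, minus strand) had a stronger summit than the widely used gene, with signal 253 at rank 598, and ranked 592 and 676 in the replicates. That summit lay 304 bp from its TSS but 2 bp from the TSS of CG12299 on the opposite strand. The tandem genes Vha16-2 and Vha16-3 had pooled entries of rank 27702 and 24698 in their coding sequence, with a −log10 q of 0.13 and 0.18, and neither had an entry in replicate 2. Vha16-4 had none in any list. For subunit c'', VhaPPA1-1 (FBgn0028662; 3R, 14902330 to 14904061, minus strand) had a summit below the limit, 80 bp upstream of its TSS, with signal 69.5, rank 6066 and −log10 q of 2.76, and its paralogue VhaPPA1-2, some kilobases away on the same strand, had none.

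Subunit d, which couples the rotor to the membrane ring, was not bound at either of its genes. VhaAC39-1 (FBgn0285910; X, 3880748 to 3882967, plus strand) had a pooled entry of rank 6676 with signal 65.0 and −log10 q of 2.34, in its coding sequence 242 bp from the TSS. It ranked 9528 in replicate 2 and 5810 in replicate 3. VhaAC39-2 had only entries ranked 18181 in the pooled list, 18664 in replicate 2 and 25208 in replicate 3.

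The small membrane subunit e had a bound paralogue beside its bound widely used gene. VhaM9.7-b (FBgn0028663; 3L, 21539862 to 21541215, plus strand), the widely used gene, had a summit 373 bp upstream of its TSS with signal 127 at rank 2383, and ranked 2307 and 2427 in the replicates. Its paralogue VhaM9.7-c (FBgn0028664; 3L, 4186018 to 4186865, minus strand) had one of signal 133 at rank 2185, 1 bp from its TSS, which lies in introns of Teh2 and CG18675. Its rank shifted from 3961 in replicate 2 to 1274 in replicate 3, a ratio of 3.11. VhaM9.7-a ranked 4646 in replicate 2 with signal 48.3, had no entry in replicate 3, and stood in the pooled list at rank 8407 with a −log10 q of 1.47. VhaM9.7-d had no entry in any list. The accessory gene VhaAC45 had entries only in the replicates, at ranks 10788 and 16153, and VhaAC45RP had none.

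Over the 12 bound genes the ranks of the replicates differed by a median ratio of 1.32, and by less than 1.5 in 8 of them, whether the best entry at the TSS or the entry within 100 bp of the thresholded summit was taken. The thresholded list keeps summits on which these same replicate lists agree, so close ranks follow in part from that selection. The ratio was not computed over all bound genes. By the best entry at a TSS, 11 of the 12 stood among the 4599 best peaks of both replicates, the exception being Vha26. By the entry at the thresholded summit itself 10 did, the exceptions being Vha26 and Vha13. Of the 33 genes, 18 had an entry at a TSS in both replicate lists, 7 in 1 of them and 8 in neither, and these 8 had no pooled entry either. They were 7 paralogues (Vha68-3, Vha36-3, Vha14-2, Vha100-3, Vha16-4, VhaPPA1-2 and VhaM9.7-d) and VhaAC45RP. Lacking an entry is common. Of all 13968 protein-coding genes, 7876 had one at a TSS in replicate 2 and 7804 in replicate 3, beside 21 and 22 of these 33. The count over both lists was not made for all genes. Each list ends at 30000 entries, so a missing entry does not show that the protein was absent there.

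**Figure D3:**
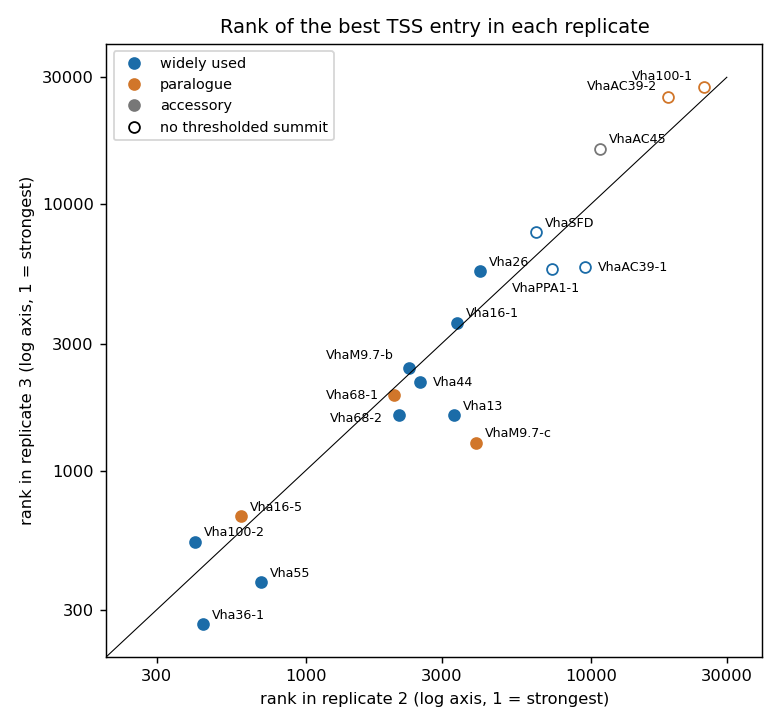
Rank of the best entry within 500 bp of a TSS in replicate 2 (x axis) and replicate 3 (y axis), both log axes with 1 the strongest, for the 18 genes with an entry in both replicate lists. Filled points are genes with a thresholded summit and the line marks equal ranks; VhaM9.7-c lies farthest from it among the filled points, with ranks 3961 and 1274. The point of Vha13 uses a replicate 2 entry 163 bp from its thresholded summit.

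The signal at the bound V-ATPase genes lay in the middle of that of all bound genes. The median signal of the best thresholded summit was 138 over the 12, with a range of 85.9 to 325, and 141 over all 3624 bound protein-coding genes. Over the 9 widely used genes it was 127, and the 3 bound paralogues had 133, 147 and 253. The thresholded summits lay upstream of the TSS in 12 of 12 cases, at 1 to 373 bp, against 79.7% of all bound genes. Their median distance was 104 bp, beside 97 bp over all bound genes. The side was not stable in single replicates. The best entry lay downstream at VhaM9.7-c (28 bp) and Vha55 (4 bp) in replicate 3, and at Vha13 (95 bp) in replicate 2.

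Many of these promoters face another gene, as those of bound genes do in general: 9 of the 12 (75%) had another coding TSS within 1000 bp, beside 68.2% of all 3624 bound genes. At 8 of the 12 summits a second protein-coding gene on the opposite strand had a TSS within 500 bp, and 5 of the summits lay nearer to that gene than to the V-ATPase gene. These 5 were Vha36-1, whose summit lay 15 bp from the TSS of CG8187, Vha26, 76 bp from noi, a splicing factor gene, VhaM9.7-b, 42 bp from COX8, for a subunit of cytochrome c oxidase, Vha16-5 and Vha100-2, whose summit lay in the 5' UTR of Vti1b, a SNARE gene. At Vha55 (Snx3, a sorting nexin gene, 190 bp), Vha44 (Hmgs, the HMG-CoA synthase gene, 67 bp) and Vha68-1 (mTor, the TOR kinase gene, 280 bp) the V-ATPase gene was the nearer. The nearer gene could differ between replicates. At Vha44, whose TSS lies 123 bp from that of Hmgs, the replicate 3 summit lay 83 bp upstream, so nearer to Hmgs. At Vha26, whose TSS lies 304 bp from that of noi, the replicate 2 summit lay 134 bp upstream, so nearer to Vha26. Which gene of such a pair a summit serves cannot be told apart from position. At Vha68-2, Vha16-1, Vha13 and VhaM9.7-c no other coding TSS lay in the window.

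**Figure D4:**
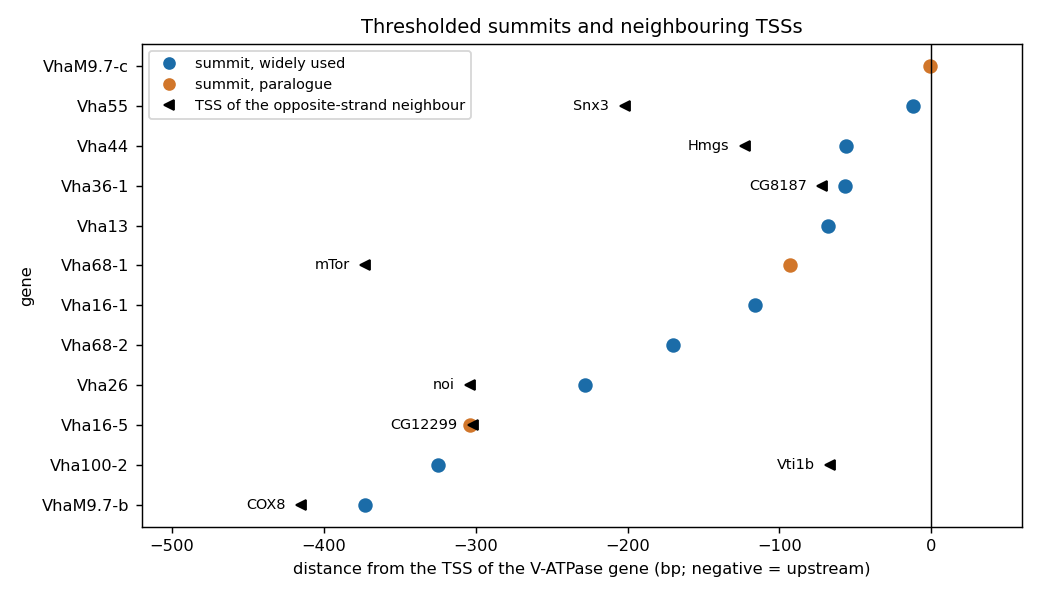
Position of the 12 thresholded summits (circles) and of the nearest neighbouring TSS within 500 bp of each summit (triangles, with the gene's name), as distance in bp from the TSS of the V-ATPase gene, negative being upstream. All circles lie upstream, from 1 to 373 bp, and 8 of the 12 genes have a triangle, each on the opposite strand.

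Close neighbours moved with the class. Another protein-coding TSS lay within 1000 bp in 8 of 13 widely used genes (61.5%) and 6 of 18 paralogues (33.3%), beside 42.8% of all genes. Among genes with such a neighbour, 7 of 8 widely used genes and 2 of 6 paralogues were bound, against 41.3% of all such genes. Without one, 2 of 5 and 1 of 12 were bound, against 14.4%. The number of start sites moved with it too. All 5 widely used genes with 2 or more TSSs and none of the 3 such paralogues were bound, against 39.5% of such genes. With 1 TSS, 4 of 8 and 3 of 15 were bound, against 21.1%. In each of these strata the widely used genes had the larger share, over few genes, and the part of neighbours and start sites in the split was not tested further.

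The widely used gene was bound in most subunits with a single gene and in most of those with paralogues, over few subunits. Of the 5 subunits with 1 gene (B, C, E, G and H) 4 were bound, and of the 8 with 2 or more genes the widely used gene was bound in 5. The share over all protein-coding genes was 25.9%. Only for subunits A, c and e did a paralogue carry a summit, and in each of these the widely used gene carried one as well. For subunits F, c'' and d no gene was bound.

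Promoter motifs were searched on both strands from 250 bases before to 50 after each TSS, and a gene counted once over all its TSSs. The DRE stood in 2 of 33 genes, Vha55 and VhaSFD, beside 10.2% of all protein-coding genes. The Motif 1 core stood in 4, Vha16-1, Vha26, Vha68-2 and the neuronal paralogue Vha100-1, beside 6.77%. At Vha16-1 that match lay before an inner TSS, 669 bp from the thresholded summit. Forkhead letters (GTAAACA, or the form ACAAACA, or the form GCAAACA, or the form ATAAACA) stood in 9 of 33, beside 41.1%, and GACGC, an alternative forkhead site, in 5, beside 28.3%. Of the 12 bound genes 3 held forkhead letters, Vha36-1, Vha44 and Vha55, beside 48.5% of all bound genes. The match at Vha44 lay before an inner TSS, 2487 bp from the thresholded summit.

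Mitf, the Drosophila relative of TFEB, is known to activate V-ATPase genes through an E-box of the form TCACGTGA. This site was rare, in 28 of 13968 genes (0.200%), and 2 of these 28 were V-ATPase genes, Vha44 and Vha68-2. At Vha44 it lay 41 to 48 bases before the outer TSS, which is not the canonical one, and 8 bp from the CHES-1-like summit. At Vha68-2 it lay before an inner TSS, 1151 bp from the summit, and is shown with 11 bases on each side in capitals (chr2L:12975292-12975321, plus strand).
Vha68-2: tcaaagctctgTCACGTGAaacgaaagctc
Its shorter core CACGTG, which overlaps it, stood in 5 genes, Vha44, Vha55, Vha68-2, VhaAC45RP and VhaM9.7-d, beside 5.29% of all genes. CAGCTG stood in 11 of 33, beside 22.3%, and the repeat GAGAGAG in 4, beside 9.06%.

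Around the summits themselves, within 100 bp on each side, each motif stood in at most 2 of the 12 windows. Of the 12 windows 0 held a DRE, 1 the Motif 1 core (Vha68-2), 1 forkhead letters (Vha36-1), 2 GACGC (Vha16-5 and VhaM9.7-c), 2 CACGTG (Vha44 and Vha55), 2 CAGCTG (Vha36-1 and Vha44) and 0 the GAGAGAG repeat. Over all 4599 thresholded windows these shares were 6.76%, 4.26%, 29.4%, 16.1%, 3.07%, 12.7% and 4.54%. The DRE, forkhead letters and the GAGAGAG repeat thus stood below these shares, and the other motifs near or above them. TCACGTGA stood in 7 of the 4599 windows, of which 1 was that of Vha44. With 12 windows such counts are descriptions only.

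By the thresholded list, genes that assemble, regulate or use the acid compartment were bound about as often as other genes. At a looser limit and in replicate 3 their share was larger than that of all genes. Of a list of 21 such genes, 6 were bound (28.6%, beside 25.9% of all genes). They were Lamtor3 (signal 227, rank 740), Lamtor4 (114, rank 2886) and Lamtor5 (106, rank 3242), subunits of the Ragulator complex that holds TOR signalling at lysosomes, CtsB (158, rank 1563), a lysosomal protease gene, and the chloride transporter genes ClC-c (132, rank 2242) and ClC-b (101, rank 3473). Another 8 had a pooled entry with a q-value under 0.05, which made 14 of 21 beside 38.6% of all genes. Among these were Rbcn-3A (rank 4787) and Rbcn-3B (rank 5923), of the complex that assembles V1 onto V0. In the best peaks of replicate 3 alone the count was 10 (47.6%, beside 26.2% of all genes), with both Rbcn-3 genes. In those of replicate 2 it was 7 (33.3%, beside 25.2%). The replicates disagreed at Mitf itself, which had a replicate 3 entry of rank 5852 with a q-value under 0.05 and none in replicate 2. Its pooled entry ranked 17786. Trpml, the lysosomal calcium channel gene, had no entry in any list.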

How the data were processed

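ChIP-seq peak lists of the 2 samples were read on dm6; the dm3 lists were not used. Per the deposited manifests, each replicate list came from that library's alignments and a control, the pooled list from both libraries' alignments with that control, and the thresholded list from the other 3 lists by the irreproducible discovery rate procedure. The signal value and the −log10 of the q-value are the authors' deposited values; no depth is given. Aligner, peak caller, versions and reproducibility limit: not given in the sources used here. Both samples come from separate biosamples of 1 line, per the labels.

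Summits were assigned to TSSs of Ensembl release 115, with 19275 distinct protein-coding TSSs, and sequences were read from release 6 of the genome; 0 entries lay beyond an arm end. Distances are between summit and TSS. Shares are counts beside those over all genes, with exact Clopper-Pearson intervals and no test. The assignment was tested on simulated summits. The 33 genes, their classes, the list of 21 related genes (21 matched) and the motifs were chosen with earlier results of these data known. All 33 genes are accounted for; other genes are named where they share a summit or belong to the list. Alternatives covered the TSS window, the TSS set, the list, each replicate and the classes. Python 3.11.15, scipy 1.17.1 and matplotlib 3.10.9 were used.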

Additional observations from a re-analysis of the deposited data

How the results depend on the processing

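No alternative reversed the order of the classes. With the stronger part of the thresholded list, bound genes numbered 7 of all 33, 4 widely used and 3 of the 21 related genes, and with each summit counted only for its nearest TSS, 7 and 5 of the first 2 groups. Leaving VhaM9.7-a and the bound genes VhaM9.7-c and Vha68-1 out of the paralogues left 1 of 15 bound (6.67%, beside 25.9% of all genes). That lower count was fixed by which genes were left out, so it does not bear on the split. With pooled entries of q-value under 0.05, 14 of 21 related genes had a summit, beside 38.6% of all genes. With replicate 2 or 3 left out, all 33 genes gave 11 to 12, widely used genes 8 to 9, paralogues 3, accessory genes 0 and related genes 7 to 10. The other alternatives stayed within 1.5 times the values reported. A window of 250 bp dropped Vha100-2, Vha16-5 and VhaM9.7-b, 1000 bp added Vha14-1, and the canonical TSS alone dropped Vha16-1 and Vha44. No paired analysis was possible because the samples form 1 group. Unknown read depth limits statements about weak or missing entries.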
